A study of Mus musculus with 6 samples.

Results

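The 38 genes described here encode proteins that make ribosomes: the core proteins of small nucleolar ribonucleoproteins (snoRNPs), the RNA polymerase I machinery, abundant proteins of the nucleolus, and factors that process the small and the large ribosomal subunit. They were listed by name, with no measured value in the rule that lists them, and all 38 were found among the 45802 named features of the tables. The data are RNA immunoprecipitation followed by sequencing (RIP-seq) of mouse left ventricle, in which RNA that comes down with an antibody against EZH2, the enzyme of Polycomb repressive complex 2 that methylates histone H3 on lysine 27, is compared with RNA that comes down with normal IgG. The mice were 10-week-old males in 3 treatment groups of 2 mice. Sham mice are labelled as untreated, and the protocol says they received saline. The other groups received Angiotensin II (AngII), a peptide hormone that raises blood pressure and induces cardiac hypertrophy, from an osmotic minipump at 1 mg/kg/min for 4 h or 24 h. The strain is labelled C57BL/6 for all libraries except the anti-EZH2 libraries of AngII 4 h (C57BL/7) and AngII 24 h (C57BL/8). Each group gave 1 IgG and 1 anti-EZH2 library, each from 2 immunoprecipitations mixed before library preparation, so no value below has a replicate.

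Ribosomes are assembled in the nucleolus. RNA polymerase I transcribes the ribosomal DNA into a long precursor, which is cut, folded and chemically modified with the help of many proteins. C/D box snoRNPs guide methylation of ribose, and H/ACA box snoRNPs guide the change of uridine to pseudouridine. The small nucleolar RNAs (snoRNAs) that guide these reactions are mostly cut out of introns of other genes, several of which encode snoRNP or nucleolar proteins themselves. In heart muscle, ribosome production rises during hypertrophic growth, when cardiomyocytes make more protein.

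Nop56, Nop58, Dkc1, Ncl and Gnl3 were annotated as hosts of 16 snoRNAs on their own strand. Of the 16 snoRNAs, 5 had a value above 0 in some library, and their sequences are shown because reads from such short RNAs lie inside the genes whose messenger RNA is being measured (GENCODE M21 transcripts, GRCm38). Capitals mark the C box (TGATGA with at most 1 mismatch, within the first 20 bases) and the last D box (CTGA) of the C/D box RNAs, and the ACA that ends 3 bases before the 3′ end in the H/ACA box RNAs. Snord57, Gm23650 and Gm24451 lie in Nop56, and Snord82 and Snora75 lie in Ncl.
Snord57 (chr2:130278016-130278087, + strand): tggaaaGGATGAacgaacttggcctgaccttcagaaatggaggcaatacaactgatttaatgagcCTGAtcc
Gm23650 (chr2:130277697-130277766, + strand): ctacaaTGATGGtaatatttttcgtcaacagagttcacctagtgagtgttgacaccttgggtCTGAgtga
Gm24451 (chr2:130276237-130276369, + strand): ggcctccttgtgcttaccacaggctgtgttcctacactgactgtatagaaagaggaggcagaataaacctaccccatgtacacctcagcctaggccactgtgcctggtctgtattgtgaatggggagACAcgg
Snord82 (chr1:86356261-86356330, - strand): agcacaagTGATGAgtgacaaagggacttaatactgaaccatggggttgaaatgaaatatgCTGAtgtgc
Snora75 (chr1:86351169-86351301, - strand): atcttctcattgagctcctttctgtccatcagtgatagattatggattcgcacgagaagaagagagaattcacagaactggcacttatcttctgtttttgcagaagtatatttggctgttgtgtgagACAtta
The C box of Snord82 matched without a mismatch, and those of Snord57 and Gm23650 matched with 1.

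Depth was inferred from the steps between low values and came to 3795785 to 5228104 fragments in the IgG libraries and 4757941 to 7941101 in the anti-EZH2 libraries. The tissue label fitted its markers: 6 of 6 cardiomyocyte genes were above 0 in every library, with a summed level of 2720 to 4577 FPKM (fragments per kilobase, corrected for how many fragments each library had mapped), while 3 markers of fat cells summed to 0 in 5 libraries and to 0.754 FPKM in the Sham anti-EZH2 library (Adipoq 0.521, Cidec 0.234, and Plin1 at 0 in all 6). Mitochondrially encoded genes took 31.3% of the summed FPKM in the anti-EZH2 library of AngII 24 h and 6.72 to 13.9% in the others. Its part in the results for that library was not tested. The messenger RNA of Ezh2 measured 0.266 to 2.06 FPKM. In such bulk tissue, fewer cells of a type and less RNA per cell cannot be told apart.

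Messenger RNAs of most of the ribosome biogenesis proteins were measured at a few FPKM or less in these ventricles. The median over the 38 genes of the mean over 6 libraries was 1.46 FPKM. It was 3.07 FPKM for the 8630 features whose mean reached 1 FPKM and which were used for the comparisons. That set holds no feature below 1 FPKM, while the 38 genes were not filtered, so these medians are not on like terms. In each library the median of the 38 genes lay between 1.00 and 1.83 FPKM. The threshold was reached by 25 of the 38 genes, against 8630 of 45798 named features, so more often than by features in general. A mean above 3.07 FPKM was found for 9 of the genes. The 13 below the threshold were Nop2, Naf1, Nip7, Polr1b, Nolc1, Utp20, Polr1a, Rrp12, Bop1, Nop14, Utp15, Gnl3 and Heatr1. Gar1 reached the threshold through the Sham IgG library alone and Tcof1 through the IgG library of AngII 24 h alone. Wdr12 reached it only with both its Sham and its AngII 4 h IgG values (2.64 and 2.20 FPKM). A difference between such a library and the others thus follows in part from the threshold, and the calls of these genes are no support for a direction.

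**Figure D1:**
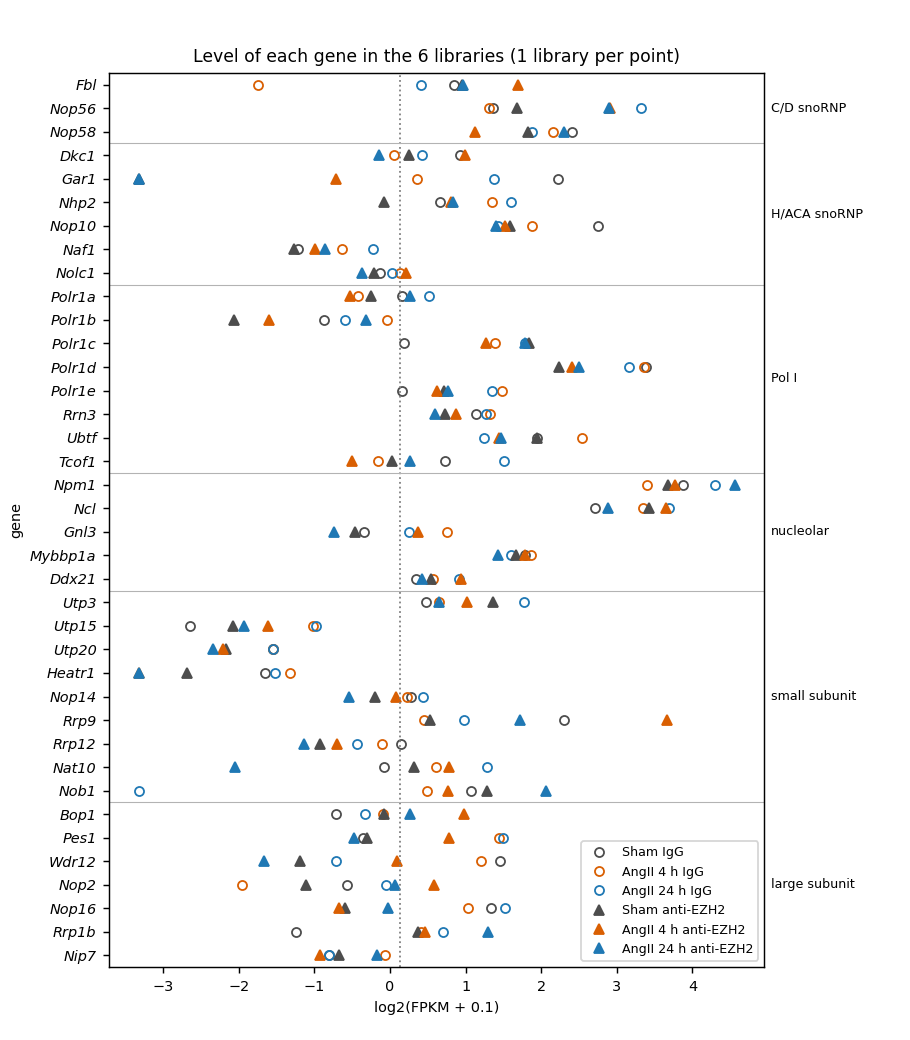
Level of each of the 38 genes in the 6 libraries, as log2(FPKM + 0.1) on the x axis, with 1 point per library, open circles for IgG, filled triangles for anti-EZH2 and colours for the groups. The genes are ordered by role, and the dotted line marks 1 FPKM. Npm1 lies farthest to the right, with a lowest value of 10.4 FPKM, and the leftmost points, of Gar1, Heatr1 and Nob1, are values of 0.

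Few reads stood behind most values. The deposited tables give an interval around each FPKM value, and its width was turned into the number of fragments whose counting error alone would give that width, called effective fragments here. The median over the 223 values above 0 was 7.23 effective fragments, and 136 of them had under 10. Of all 228 values, 5 were 0, namely Gar1 in the anti-EZH2 libraries of Sham and AngII 24 h, Heatr1 in the anti-EZH2 libraries of AngII 4 h and AngII 24 h, and Nob1 in the IgG library of AngII 24 h. Only Nolc1, Polr1a, Polr1d, Rrn3, Npm1, Ncl, Ddx21 and Utp3 had 10 or more in every library, and 16 genes averaged under 5. Below, values are given in the order Sham, AngII 4 h and AngII 24 h, first for IgG and then for anti-EZH2.

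Among the C/D box snoRNP proteins, Fbl encodes fibrillarin, the methyltransferase of the particle. It measured 1.69, 0.199 and 1.23 FPKM with IgG and 1.83, 3.14 and 1.86 FPKM with anti-EZH2. Its IgG library of AngII 4 h stood below the other 5, and its deposited interval (0 to 0.492 FPKM) did not meet that of the anti-EZH2 library of the same hearts (1.73 to 4.32 FPKM) or that of the Sham IgG library (0.598 to 2.59 FPKM). Nop56 and Nop58 encode the paired scaffold proteins of the particle. Nop56 measured 2.47, 2.37 and 9.89 FPKM with IgG and 3.09, 7.39 and 7.32 FPKM with anti-EZH2. Nop58 measured 5.19, 4.36 and 3.57 FPKM with IgG and 3.45, 2.08 and 4.84 FPKM with anti-EZH2. Nop56 was lowest in the Sham libraries and the IgG library of AngII 4 h, whereas Nop58 was highest in the Sham IgG library, so these partner genes did not share an order.

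The H/ACA box particle consists of the pseudouridine synthase dyskerin (Dkc1) and the small proteins Gar1, Nhp2 and Nop10. Dkc1 measured 1.79, 0.940 and 1.24 FPKM with IgG and 1.09, 1.89 and 0.800 FPKM with anti-EZH2. Gar1 measured 4.54, 1.18 and 2.50 FPKM with IgG and was listed at 0, 0.506 and 0 FPKM with anti-EZH2. Nhp2 measured 1.48, 2.44 and 2.94 FPKM with IgG and 0.845, 1.64 and 1.68 FPKM with anti-EZH2. In both Gar1 and Nhp2 the anti-EZH2 value was below the IgG value in all 3 groups, and the Dkc1 order changed at AngII 4 h. Nop10 has a single annotated transcript, so that its FPKM could be turned into whole reads: 26, 17 and 9 with IgG and 15, 20 and 11 with anti-EZH2, for 6.62, 3.57 and 2.60 FPKM and 2.90, 2.76 and 2.54 FPKM. The Sham IgG library stood above the other 5. Per sequenced fragment the anti-EZH2/IgG ratio of Nop10 was 0.438 in Sham (exact Clopper-Pearson 95% interval from the reads, 0.216 to 0.859), 0.775 at AngII 4 h (0.385 to 1.57) and 0.975 at AngII 24 h (0.367 to 2.66). Only the Sham interval lay below 1, and these intervals cover counting error alone. These ratios are not centred, and the median of all features compared was itself at 0.859 in Sham, at the upper end of that interval. Of the assembly factors, Naf1 measured 0.315 to 0.752 FPKM and Nolc1, a chaperone of snoRNPs, 0.670 to 1.06 FPKM.

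Among the genes of RNA polymerase I transcription, Polr1a encodes the largest subunit of the enzyme and Ubtf the factor that opens ribosomal DNA for it. Polr1a measured 1.02, 0.645 and 1.33 FPKM with IgG and 0.743, 0.594 and 1.10 FPKM with anti-EZH2, with its lowest level at AngII 4 h in both antibodies. Ubtf measured 3.76, 5.71 and 2.26 FPKM with IgG and 3.75, 2.60 and 2.67 FPKM with anti-EZH2. Its Sham values were nearly equal, while the IgG libraries of AngII 4 h and 24 h held its highest and its lowest value. Polr1d, a subunit shared with RNA polymerase III, measured 10.4, 10.2 and 8.81 FPKM with IgG and 4.61, 5.22 and 5.54 FPKM with anti-EZH2. All 3 IgG values of Polr1d lay above all 3 anti-EZH2 values, although the deposited intervals met within each group. Rrn3, the initiation factor TIF-IA, did likewise, with 2.11, 2.41 and 2.32 FPKM against 1.55, 1.73 and 1.42 FPKM. A deposited table of the whole series did not keep this separation for either gene. There Polr1d was higher with IgG in Sham only (2.49 against 2.26 FPKM). It was higher with anti-EZH2 at AngII 4 h (2.09 against 2.04 FPKM) and at AngII 24 h (4.34 against 3.55 FPKM). The Sham anti-EZH2 value of Rrn3 there (1.32 FPKM) lay above its IgG value of AngII 4 h (1.23 FPKM), with IgG higher within each group. Tcof1 encodes treacle, which links the polymerase to rRNA processing, and measured 1.55, 0.791 and 2.75 FPKM with IgG and 0.919, 0.608 and 1.10 FPKM with anti-EZH2. Its order over the groups was the same in both antibodies, lowest at AngII 4 h and highest at AngII 24 h. Polr1b, Polr1c and Polr1e ranged over 0.139 to 0.876, 1.04 to 3.49 and 1.01 to 2.68 FPKM.

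Npm1 and Ncl, of the nucleolar proteins, had the highest mean levels of the 38 genes. Npm1 encodes nucleophosmin, a histone and ribosome chaperone, and measured 14.6, 10.4 and 19.6 FPKM with IgG and 12.7, 13.5 and 23.5 FPKM with anti-EZH2. Both libraries of AngII 24 h stood above the other 4. The intervals of the AngII 24 h libraries did not meet those of AngII 4 h in either antibody (14.6 to 24.6 against 7.09 to 13.8 FPKM with IgG, 16.8 to 30.1 against 10.7 to 16.4 FPKM with anti-EZH2). Against Sham they were apart with anti-EZH2 (Sham 9.28 to 16.2 FPKM) and met with IgG. How reads shared with copies of a gene elsewhere in the genome were counted is not given in the sources used here, so the level of Npm1, which has processed pseudogenes, is uncertain to that extent. Ncl encodes nucleolin, which binds pre-rRNA, and measured 6.44, 10.1 and 12.8 FPKM with IgG and 10.7, 12.5 and 7.31 FPKM with anti-EZH2. In the tables of single libraries the order over the groups thus differed between the antibodies. Only the IgG libraries of AngII 24 h (9.24 to 16.3 FPKM) and Sham (4.64 to 9.01 FPKM) had intervals that did not meet. The table of the whole series, also deposited, gave Ncl the same order in both antibodies, lowest in Sham and highest at AngII 24 h. The order with anti-EZH2 thus depended on the table used, and the tables also differ in scale by library, as given below for Nop56. Mybbp1a stayed between 2.58 and 3.53 FPKM, Ddx21, an RNA helicase, between 1.17 and 1.82 FPKM, and Gnl3, which encodes nucleostemin, between 0.498 and 1.58 FPKM.

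**Figure D2:**
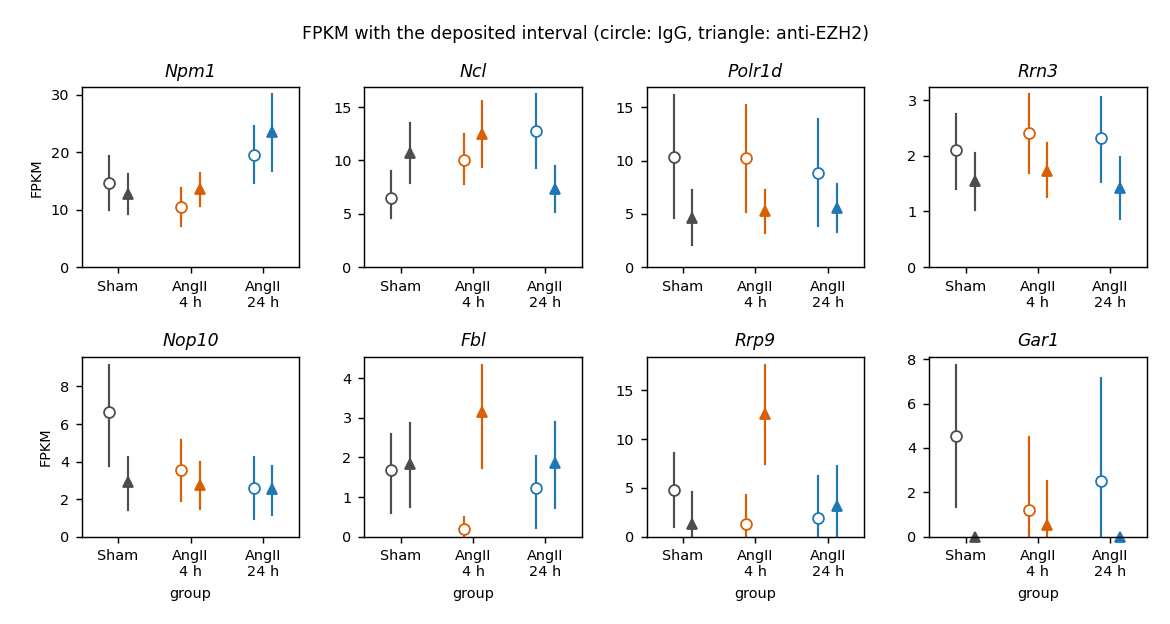
FPKM (y axis, linear from 0) of 8 genes by group, with circles for IgG, triangles for anti-EZH2 and lines for the interval deposited with each value. The Npm1 values of AngII 24 h, 19.6 and 23.5 FPKM, lie above the other 4, the Fbl and Rrp9 values stand apart between the antibodies at AngII 4 h only, and Gar1 has anti-EZH2 values of 0 in Sham and AngII 24 h.

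Among the small subunit factors, single libraries stood far from the rest. Rrp9 encodes a protein of the U3 snoRNP, which is needed to cut the 18S rRNA out of the precursor, and measured 4.81, 1.26 and 1.86 FPKM with IgG and 1.34, 12.5 and 3.19 FPKM with anti-EZH2. The anti-EZH2 library of AngII 4 h stood above the other 5, and its interval (7.45 to 17.6 FPKM) did not meet that of the IgG library of those hearts (0 to 4.30 FPKM) or those of the other 2 anti-EZH2 libraries. Rrp9 overlaps Parp3 on the opposite strand. Nob1 encodes the nuclease that makes the last cut at the end of 18S rRNA, and measured 2.00 and 1.31 FPKM and was listed at 0 with IgG, and measured 2.34, 1.60 and 4.07 FPKM with anti-EZH2. Its lowest and its highest value thus came from the same AngII 24 h hearts, and its values rested on 2.84 effective fragments on average. Utp3 and Rrp12 could be turned into whole reads. Utp3, of the small subunit processome, had 8, 11 and 18 reads with IgG and 20, 22 and 10 with anti-EZH2. Rrp12, a factor in export of the subunits, had 18, 18 and 10 reads with IgG and 10, 17 and 7 with anti-EZH2. The ratio per sequenced fragment of Rrp12 was 0.422 in Sham (exact 95% interval 0.174 to 0.964), while for Utp3 it was 1.90 in Sham (0.801 to 4.98) and 0.443 at AngII 24 h (0.183 to 1.01), intervals that reach across 1. The median of all features compared lay at 0.859 in Sham, inside the Rrp12 interval, so Rrp12 is not set apart from it. Nat10, an rRNA acetyltransferase, ranged from 0.142 FPKM in the anti-EZH2 library of AngII 24 h to 2.34 FPKM in the IgG library of that group. Utp15, Utp20, Heatr1 and Nop14 stayed at or below 1.26 FPKM.

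Of the large subunit factors, Pes1 and Wdr12 encode partners, with Bop1, in the PeBoW complex. Pes1 measured 0.681, 2.61 and 2.72 FPKM with IgG and 0.712, 1.61 and 0.617 FPKM with anti-EZH2. Wdr12 measured 2.64, 2.20 and 0.507 FPKM with IgG and 0.339, 0.966 and 0.214 FPKM with anti-EZH2. Pes1 was higher at AngII 4 h than in Sham in both antibodies, and Wdr12 was lowest at AngII 24 h in both. Nop16, a nucleolar protein of large subunit assembly, measured 2.43, 1.93 and 2.76 FPKM with IgG and 0.564, 0.526 and 0.881 FPKM with anti-EZH2. All 3 IgG values of Nop16 lay above all 3 anti-EZH2 values, on an average of 2.45 effective fragments. In the table of the whole series IgG was above anti-EZH2 within each group only. There the Sham IgG value (0.787 FPKM) lay below the anti-EZH2 value of AngII 24 h (1.59 FPKM). Rrp1b measured 0.323, 1.23 and 1.52 FPKM with IgG and 1.19, 1.28 and 2.35 FPKM with anti-EZH2, with the Sham IgG library lowest and an average of 1.14 effective fragments. Nop2, an rRNA methyltransferase below the threshold for comparison, measured 0.572, 0.157 and 0.866 FPKM with IgG and 0.362, 1.40 and 0.950 FPKM with anti-EZH2. Its interval in the anti-EZH2 library of AngII 4 h (0.907 to 1.91 FPKM) did not meet those of the IgG library of that group (0 to 0.363 FPKM) and of the Sham anti-EZH2 library (0.0669 to 0.602 FPKM). Bop1 and Nip7 ranged over 0.508 to 1.87 and 0.427 to 0.857 FPKM.

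The first comparison asked whether these messenger RNAs were recovered more with anti-EZH2 than with IgG. Over the 3 groups none of the 25 genes passed the test. It was a limma fit to log2(FPKM + 0.1), in which the libraries of a group form a pair and each ratio is taken relative to the median of all 8630 features. The smallest adjusted p among the 25 genes was 0.820, and 2 of all 8630 features, 0.0232%, passed an adjusted p of 0.05. An unadjusted p under 0.05 was found for 2 of the 25 genes, Nop16 and Gar1, against 6.04% of all features. With 3 pairs the spread is known poorly, and an exact sign-flip test of a single gene could not go below 0.25. The p-values measure only the spread of the ratio between these 3 pairs, which differ in treatment and are not replicates. That spread takes in any difference of the ratio between the groups as well as technical variation, and these cannot be told apart. In simulated data with this spread the fit called 0 of 50 genes changed by 1 in log2, so small differences would be missed.

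Nop16 had the mean log2 ratio best separated from 0, at -1.43 (SE 0.41, lower with anti-EZH2 in 3 of 3 groups, limma adjusted p 0.820). The mean of Gar1 was lower, at -3.48 (SE 1.12, limma adjusted p 0.820), a value that depends on the pseudocount since 2 of its 3 anti-EZH2 values were 0. Wdr12 had -1.28 (SE 0.66, limma adjusted p 0.858). At the other end were Nob1 with 2.25 (SE 1.35, limma adjusted p 0.858), which rests on the 0 in 1 IgG library, Fbl with 1.66 (SE 0.75, limma adjusted p 0.842) and Rrp1b with 1.04 (SE 0.52, limma adjusted p 0.857). Relative ratios above 1 in all 3 groups were found for Fbl, Nop56, Npm1, Ddx21, Nob1 and Rrp1b, 6 of 25 genes against 14.7% of all features. Ratios below 1 in all 3 groups were found for Gar1, Nhp2, Polr1d, Rrn3, Tcof1, Wdr12 and Nop16, 7 of 25 against 15% of all features. The middle gene of the 25 had a mean log2 ratio of 0.00, against -0.03 for all features.

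Within each group a ratio past 2-fold was counted, with no test. In Sham, Polr1c, Utp3 and Rrp1b were above 2-fold (3 of 25 genes, against 16.8% of all features), and Gar1, Rrp9, Wdr12 and Nop16 were below 0.5-fold (4 of 25, against 13.6%). At AngII 4 h, Fbl, Nop56, Dkc1 and Rrp9 were above (4 of 25, against 13.5%), and Gar1, Ubtf, Wdr12 and Nop16 were below (4 of 25, against 10.4%). At AngII 24 h, Fbl, Nop58, Rrp9, Nob1 and Rrp1b were above (5 of 25, against 15.9%), and Gar1, Nat10 and Pes1 were below (3 of 25, against 17.3%). Genes above 2-fold thus made up 12, 16 and 20% of the 25, and the median log2 ratios of the 25 genes were 0.10, -0.06 and 0.01. The median of all features had itself been shifted by -0.22, -0.07 and -0.58 in log2 before this centring. Without it, 1 gene was above and 6 were below at AngII 24 h, and the counts of the other groups stayed within 1.5 times of these. Uncentred, the median of all features was itself at 0.668-fold at AngII 24 h. Shares of all features under such other settings are not given here or below, so nothing about these genes is read from those counts.

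**Figure D3:**
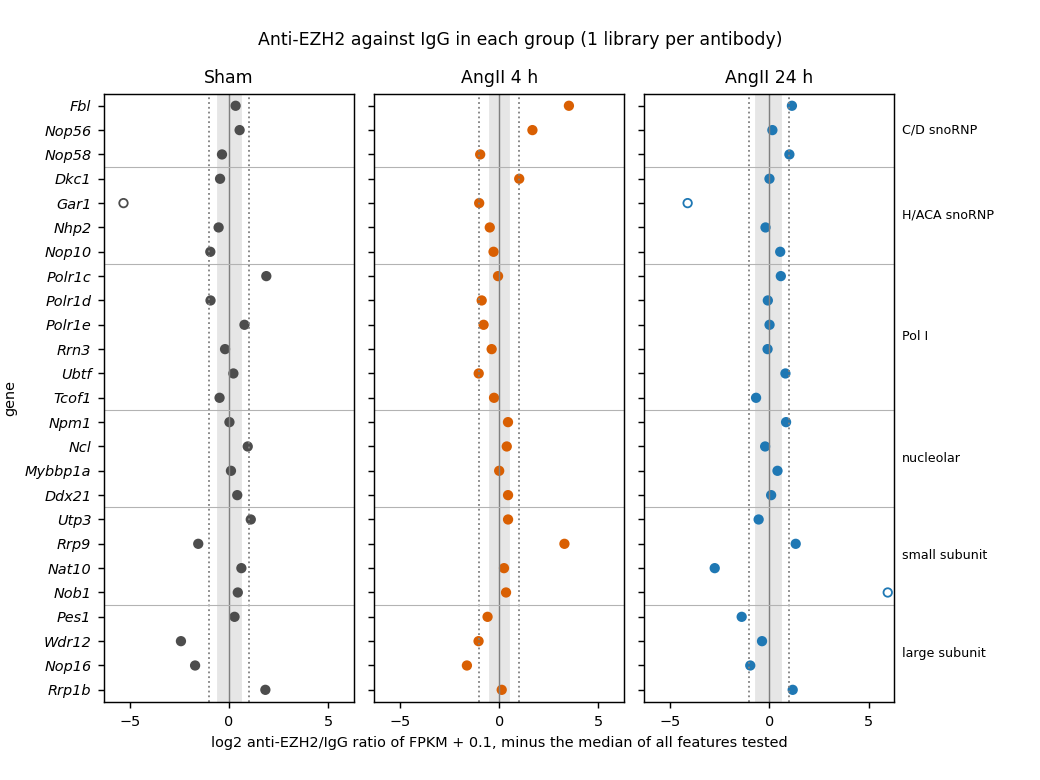
Log2 anti-EZH2/IgG ratio of FPKM + 0.1 for the 25 genes in each group, relative to the median of all features tested (x axis), with 1 pair of libraries per point and open points where 1 value was 0. Grey bands span the lower to the upper quartile of all features and dotted lines mark 2-fold. The genes scatter on both sides of 0 in every group, and only Gar1 lies past the left line in all 3, at -5.32, -1.01 and -4.12.

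Gar1 was below 0.5-fold in all 3 groups (1 of 25 genes, against 0.487% of all features), with a relative ratio of 0.497 at AngII 4 h, just inside the limit. Since Gar1 reached the threshold through its high Sham IgG value, which is also the value its Sham ratio is taken against, nothing is read from this count. No gene was above 2-fold in all 3 groups, where 1.84% of all features were. Intervals that did not meet between the antibodies, both values above 0, were found in no gene of the 38 in Sham (5.9% of 8537 features), in Fbl, Rrp9 and Nop2 at AngII 4 h (4.29%) and in none at AngII 24 h (10.7%). A criterion adapted here from the study's screen of non-coding RNAs was also applied to the FPKM values. It asked for a value above 0 in every library, above 1.0 FPKM with anti-EZH2 and a deposited ratio above 2, and was met by Polr1c and Rrp1b in Sham (2 of 25, against 9.93% of all features), by Fbl, Nop56, Dkc1 and Rrp9 at AngII 4 h (4 of 25, against 8.97%) and by no gene at AngII 24 h (6.36%).

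By role, the C/D box proteins had median log2 ratios of 0.33, 1.67 and 1.01 over 3 genes, and the H/ACA box proteins of -0.74, -0.38 and -0.09 over 4 genes. The large subunit factors had -0.72, -0.81 and -0.66 over 4 genes, and the small subunit factors 0.53, 0.40 and 0.39 over 4. The polymerase I group had 0.01, -0.58 and -0.03 over 6 genes, and the nucleolar proteins 0.25, 0.41 and 0.25 over 4. The H/ACA box, large subunit and polymerase I medians take in Gar1, Wdr12 and Tcof1, each above the threshold only through high IgG values. No direction is read from these medians. In Sham, Wdr12 had a log2 ratio of -2.42, and the other large subunit genes had 0.28 (Pes1), -1.71 (Nop16) and 1.83 (Rrp1b). The role groups are small, and the differences between them were not tested.

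The second comparison asked how the level of these messenger RNAs differed between the treatment groups, irrespective of the antibody. A gene was counted where it lay past 1.5-fold in the same direction in the IgG and in the anti-EZH2 libraries, relative to the median of all features. Since both libraries of a group come from the same hearts, this shows repeat measurement of those hearts and not a replicated effect of AngII. At AngII 4 h against Sham, Pes1 was higher (1 of 25 genes, against 7.13% of all features) by 3.07-fold with IgG and 1.66-fold with anti-EZH2. Tcof1 and Nob1 were lower (2 of 25, against 8.62%), Tcof1 at 0.477 and 0.547 and Nob1 at 0.593 and 0.548 of the Sham level. Without centring on the median, 2 genes were counted as higher and 0 as lower.

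Among the other genes with large mean differences at AngII 4 h, the antibodies diverged. Rrp9 lay at 0.245-fold with IgG and 6.93-fold with anti-EZH2, Fbl at 0.148 and 1.32-fold, and Rrp1b at 2.78 and 0.842-fold. Nhp2 (1.42 and 1.45-fold) and Nop58 (0.746 and 0.485-fold) lay on the same side in both but missed the limit in at least 1. Counted in the IgG libraries alone, 4 genes were higher (24.3% of all features) and 8 lower (23%), and in the anti-EZH2 libraries alone 5 were higher (23.6%) and 6 lower (25%). Intervals did not meet for Fbl among the IgG libraries (6.61% of 8537 features) and for Rrp9 and Nop2 among the anti-EZH2 libraries (11.5%).

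At AngII 24 h against Sham, Nop56, Nhp2 and Rrp1b were higher in both antibodies (3 of 25 genes, against 7.94% of all features) and none was lower (9.34%). Nop56 was 3.39-fold higher with IgG and 2.46-fold with anti-EZH2, Nhp2 1.68-fold and 1.99-fold, and Rrp1b 3.35-fold and 2.01-fold. By the series table, 2 genes were higher and 3 lower, and the mean log2 difference of Nop56 was -0.91. With intervals apart, or with a mean of at least 10 effective fragments, 0 genes were higher. Pes1 was at 3.15-fold with IgG and 0.935-fold with anti-EZH2. With IgG, 9 genes were below the limit (Fbl, Nop58, Dkc1, Gar1, Nop10, Ubtf, Rrp9, Nob1 and Wdr12), and none of them was below it with anti-EZH2. Among them were Wdr12 (0.193 and 0.758-fold), Nop10 (0.350 and 0.930-fold) and Ubtf (0.534 and 0.761-fold), and Nob1, listed at 0 in the IgG library of AngII 24 h, was at 1.81-fold with anti-EZH2. From whole reads, Nop10 in the IgG libraries lay at 0.393 of the Sham level per sequenced fragment (exact 95% interval 0.162 to 0.865), and with anti-EZH2 at 0.874 (0.363 to 2.04). Utp3 in the IgG libraries lay at 2.55 (1.06 to 6.78), and with anti-EZH2 at 0.596 (0.249 to 1.33). With IgG alone 10 genes were higher (26.3% of all features) and the 9 named were lower (23.7%), and with anti-EZH2 alone 7 were higher (24.8%) and 2, Utp3 and Nat10, were lower (29.5%). Intervals did not meet for Ncl with IgG (5.63% of features) and for Npm1 with anti-EZH2 (6.03%).

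From AngII 4 h to AngII 24 h, Npm1 and Tcof1 were higher in both antibodies (2 of 25 genes, against 6.56% of all features), and Wdr12 was lower (1 of 25, against 6.26%). Npm1 was 1.85-fold higher with IgG and 2.41-fold with anti-EZH2, and was the only one of the 25 genes called in both antibodies whose intervals were also apart in both. Among the 38 genes, intervals did not meet for Npm1 with IgG (2.62% of features) and for Npm1 and Rrp9 with anti-EZH2 (10.6%). Tcof1 was 3.17-fold and 2.36-fold higher, and Wdr12 was at 0.261 and 0.411-fold. Tcof1 was among the 25 only through the same IgG library of AngII 24 h in which it was counted as higher, so nothing is read from its call. Nor is anything read from the call of Wdr12, whose place among the 25 needed the IgG library of AngII 4 h, against which it was counted as lower. Utp3, from whole reads, lay at 2.25 with IgG (exact 95% interval 1.01 to 5.28) and at 0.759 with anti-EZH2 (0.321 to 1.67). The lower end of its IgG interval, which is not centred, lies at the median of all features, 1.01. Polr1a, below the threshold for comparison but well measured, lay at 1.91-fold with IgG and 2.41-fold with anti-EZH2. With IgG alone 7 genes were higher (23.4% of all features) and 3 lower (20.9%), and with anti-EZH2 alone 8 were higher (23.3%) and 6 lower (25.7%). The median log2 difference of the 25 genes was 0.32 with IgG and 0.36 with anti-EZH2, against quartiles of -0.47 and 0.53 and of -0.61 and 0.53 over all features.

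**Figure D4:**
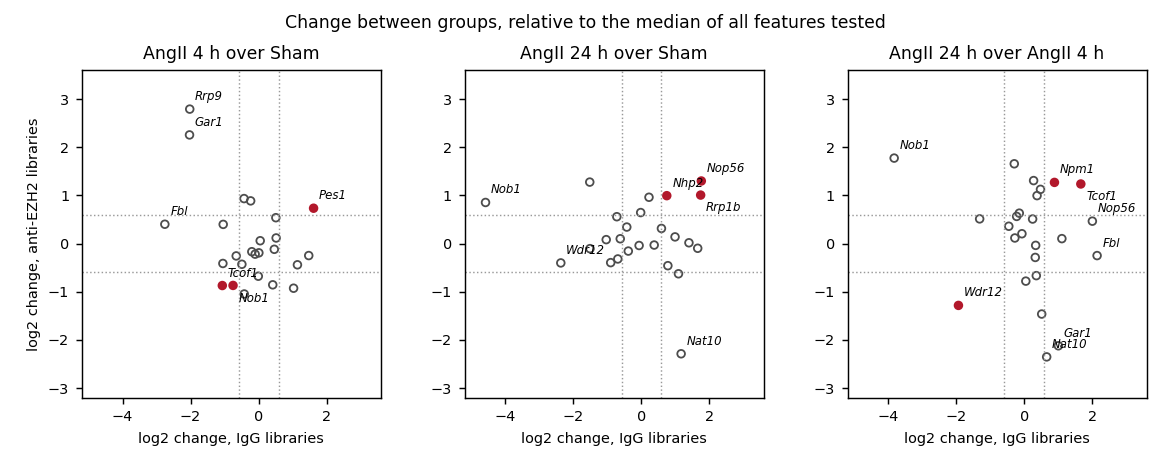
Log2 change between groups in the IgG libraries (x axis) and in the anti-EZH2 libraries (y axis) for the 25 genes, relative to the median of all features tested, with 1 gene per point and dotted lines at 1.5-fold. Filled points are the genes past 1.5-fold in the same direction in both antibodies, 3 in each panel, and most of the others are past the lines in 1 antibody only or in none.

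The third comparison, for which the study was made, asked whether the anti-EZH2/IgG ratio differed between groups. The ratio differed past 1.5-fold in all 3 pairs of groups for 12 of 25 genes, against 26.8% of all features: Fbl, Nop58, Gar1, Nop10, Polr1c, Polr1e, Ubtf, Utp3, Rrp9, Pes1, Wdr12 and Rrp1b. Without centring on the median 4 genes were counted, and with a pseudocount of 1 the count was 3. In at least 1 pair it differed for 20 of 25, against 81.7% of all features. Ordered by their 3 ratios, 6 genes had a higher ratio at each step (18.8% of all features), 4 a lower one (19.6%), 7 were highest at AngII 4 h (30.6%) and 8 were lowest at AngII 4 h (31%). These orders take in any difference, however small, and with 1 ratio per group none could be tested. Highest at AngII 4 h were Fbl, Nop56, Dkc1, Gar1, Tcof1, Ddx21 and Rrp9. Higher at each step were Nhp2, Nop10, Polr1d, Npm1, Wdr12 and Nop16, and lower at each step were Ncl, Utp3, Nat10 and Pes1.

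Nop56 differed between the deposited tables. Besides the table of each library there is a table of the whole series, in which Nop56 was listed at 711, 545 and 2795 FPKM with IgG and 1474, 135 and 255 FPKM with anti-EZH2, or 18.2 to 477 times its value in the tables of single libraries. For the other genes this factor was at most 1.80 in any library. Its snoRNA Snord57, whose sequence stands above, was listed in the tables of single libraries at 359, 293 and 1179 FPKM with IgG and at 525, 778 and 0 FPKM with anti-EZH2, and Gm24451 at 33.4, 138 and 226 FPKM and at 252, 181 and 151 FPKM. Neither has a row of its own in the series table, nor do Gm23650 and Gm23187, so 4 of the 5 snoRNAs of Nop56 are not listed there. The part of their reads in the series value of Nop56 was not tested. With IgG, Nop56 was higher at AngII 24 h than in Sham in both kinds of table, and with anti-EZH2 it was higher in the single tables (7.32 against 3.09 FPKM) and lower in the series table (255 against 1474 FPKM). The mean log2 difference over both antibodies was 1.53 in the former and -0.91 in the latter. Orders of other genes also moved. Fbl with anti-EZH2 was listed at 0.467, 0.595 and 2.31 FPKM in the series table, highest at AngII 24 h. In the single tables it was highest at AngII 4 h. Ncl with anti-EZH2 was highest at AngII 24 h in the series table and lowest at AngII 24 h in the single tables.

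**Figure D5:**
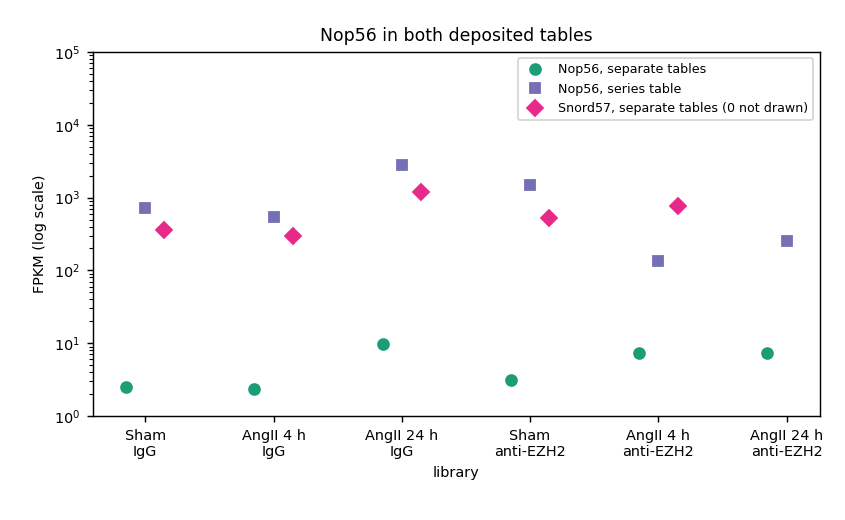
FPKM of Nop56 in the tables of single libraries (circles) and in the series table (squares), and of its intronic snoRNA Snord57 (diamonds), in each of the 6 libraries on a log axis. Nop56 lies between 2.37 and 9.89 FPKM in the former and between 135 and 2795 FPKM in the latter.

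Where they were above 0, the values of Snord57 rested on 0.436 to 2.56 effective fragments and those of Gm24451 on 0.25 to 9.47. The values of Snord57 were 1, 1.99, 3, 1.04 and 8 times the smallest value above 0 of RNAs within 1 base of its length in the same library, the fifth being the anti-EZH2 library of AngII 4 h. Gm23650 was above 0 in the Sham anti-EZH2 library alone, at 571 FPKM, as was Snord82 of Ncl at 296 FPKM, which was 1 times the smallest such value. Snora75 of Ncl was listed at 66.8 FPKM in the Sham IgG library and 39.6 FPKM in the anti-EZH2 library of AngII 4 h, and at 0 in the others. The 4 snoRNAs of Nop58, the 1 of Dkc1 and the 3 of Gnl3 were at 0 in all 6 libraries.

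Another 109 genes of ribosome biogenesis were found by name, among them small and large subunit assembly factors, polymerase I cofactors, snoRNP assembly factors and the RNA exosome, and 65 of them reached the threshold. None passed the limma test, and 1 had an unadjusted p under 0.05. Above 2-fold with anti-EZH2 were 16 of the 65 genes in Sham (16.8% of all features), 9 in the AngII 4 h group (13.5%) and 9 in the AngII 24 h group (15.9%). Below 0.5-fold were 12 (13.6%), 11 (10.4%) and 17 (17.3%). Without centring, 3 were above and 27 below in the AngII 24 h group, where the uncentred median of all features was at 0.668-fold. By the series table, with 33 genes, 6 were above in Sham. The shares of all features under these settings are not given, so nothing is read from these counts. The ends of the list were held by Pih1d1, of a snoRNP assembly complex, with a mean log2 ratio of 3.39, which rests on a Sham IgG value of 0, by Nsun5, an rRNA methyltransferase, with 1.58, by the exosome subunit Exosc8 with -2.27, which rests on a 0 in the anti-EZH2 library of AngII 24 h, and by the large subunit factor Brix1 with -1.19. Nsun5 measured 0.31, 1.04 and 1.5 FPKM with IgG and 1.42, 2.91 and 2.29 FPKM with anti-EZH2. It was the only one of the 65 above 2-fold in all 3 groups (1.54%, against 1.84% of all features), a share near that of features in general.

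Between groups, 9 of the 65 genes were higher (7.13% of all features) and 3 lower (8.62%) in both antibodies at AngII 4 h against Sham. At AngII 24 h against Sham 6 were higher (7.94%) and 6 lower (9.34%), and between AngII 24 h and AngII 4 h 5 were higher (6.56%) and 5 lower (6.26%). Without centring, 1 was lower in the first comparison and 3 were higher in the third, and by the series table, with 33 genes, 4 and 2 were higher in the first and second. At AngII 4 h the mean log2 differences were largest for Pih1d1 (2.46), whose Sham IgG value was 0 and whose anti-EZH2 value was lower at 4 h (6.07 against 8.29 FPKM), and Mdn1, an ATPase of the large subunit precursor (2.36), and lowest for Wbscr22, an rRNA methyltransferase (-2.20), and the helicase Ddx49 (-1.20). At AngII 24 h they were largest for the GTPase Lsg1 (2.14) and Lyar (2.04), and lowest for the small subunit factors Imp4 (-2.55) and Wdr3 (-2.40). Lyar measured 2.55, 6.10 and 9.13 FPKM with IgG and 1.29, 8.08 and 7.19 FPKM with anti-EZH2, with both Sham libraries below the other 4. Myc, a transcription factor known to drive ribosome production, measured 0 to 0.486 FPKM.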

How the data were processed

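RNA was immunoprecipitated from left ventricles and sequenced from stranded libraries, with reads mapped to mm10 by TopHat2 per the labels. The deposited FPKM values and the interval deposited around each come in 1 table per library, and a series table holds FPKM again. The quantifier, its annotation, the meaning of the interval and the use of strand are not given in the sources used here. Of the 38 genes, 12 overlap a coding gene on the opposite strand.

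FPKM from the single tables was summed by gene name. Values under 0.001 were set to 0 and 4 features without an estimate were left out. Features with a mean of at least 1 FPKM were compared on log2(FPKM + 0.1), so fold changes of low genes are understated. Anti-EZH2 was tested against IgG with limma 3.58.1 (R 4.3.3), with trend and the group as block, two-sided, adjusted by Benjamini-Hochberg. The pairing comes from the hearts each group shares. Scripts were tested on simulated data. At the spread of these data the limma fit called 0 of 50 genes changed by 1 in log2, 1 of 50 changed by 2 and 19 of 50 changed by 4. The absence of a call therefore does not show the absence of a difference. Effective fragments are the square of 4 times FPKM over the interval's width, a reading of the interval as 2 SD to each side (2 times FPKM over the upper arm where the lower bound is 0). Depth was inferred by finding the value at which low single-transcript features became whole reads (67.3 to 69.7% within 0.1), and the 18 values of Nop10, Utp3 and Rrp12 all did.

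Values in every library are given for the 3 highest and 3 lowest genes by mean ratio, the 4 highest and 4 lowest by change at 4 h and at 24 h, and the leading genes Fbl, Dkc1, Nop10, Ncl, Npm1, Polr1a and Ubtf. Polr1c, Polr1d, Rrn3, Utp3, Nat10, Nop2, the ratios of Bop1 and the ranges of the others were added after values were seen. Of the further genes, the 2 highest and 2 lowest are named. Members and lists were chosen with earlier results of these data known. No count model was used, since FPKM are not counts.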

Additional observations from a re-analysis of the deposited data

How the results depend on the processing

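No gene of the 25 tested passed the paired test, and none of those tested under each alternative did (4 to 25 genes, and all 38 without a filter), including the fit with no replicate block (0 called) and the fits that left out the pair of Sham, AngII 4 h or AngII 24 h (0 to 0 called). The counts without a test moved, and the cause was not tested. The share of all features under each alternative is not given, so the counts show only how far they depend on the setting. Another filter changes both the genes entered and the median used for centring. Counts are given as above and below 2-fold in Sham, AngII 4 h and AngII 24 h, against 3 and 4, 4 and 4, and 5 and 3. Where the deposited intervals also had to be apart, they were 0 and 0, 2 and 0, and 0 and 0. With a mean of at least 5 FPKM (4 genes) they were 0 and 0, 1 and 0, and 0 and 0. With a mean of at least 10 effective fragments, a limit chosen after seeing the data (15 genes), those that moved were 1 and 0 in Sham, 1 below at 4 h, and 2 and 0 at 24 h. Without a filter (38 genes) 9, 7 and 7 were below and 1 was above at 24 h. With a pseudocount of 1, 1 was above in Sham, 0 below at 4 h and 1 above at 24 h. Among protein-coding genes only, 1 was below at 4 h. By the series table, at 4 h 1 was above and 2 were below, and without centring 1 was above and 6 were below at 24 h.

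Between groups, the counts of higher and lower genes were 1 and 2 (4 h against Sham), 3 and 0 (24 h against Sham), and 2 and 1 (24 h against 4 h). They became 0 and 0, 0 higher, and 1 and 0 with intervals apart, 0 and 0, 1 higher, and 1 and 0 at 5 FPKM, and 0 and 1, 0 higher, and 0 lower at 10 effective fragments. With a pseudocount of 1 they were 0 and 0 in the first comparison and 0 lower in the third, with a pseudocount of 0, 1 lower in the first, and without a filter 4 and 1 in the first. In the series table they were 0 and 1 in the first and 3 lower in the second, and without centring 2 and 0 in the first. Genes whose ratio differed in all 3 pairs of groups numbered 12, and 4 without centring, 0 at 5 FPKM, 4 at 10 effective fragments, 7 without a filter, and 3 with a pseudocount of 1 and in the series table.

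Of the 65 further genes, without centring 3 were above and 27 below at 24 h, 1 was lower at 4 h against Sham and 3 were higher at 24 h against 4 h. By the series table, in Sham 6 were above, 3 above and 5 below at 4 h, 9 below at 24 h, and 4 and 2 were higher against Sham at 4 h and 24 h. Nop56 at 24 h against Sham changed sign, to -0.91 in the series table. One library per group and antibody, and a median of 7.23 effective fragments, limit every value.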

Other observations

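Among the features tested, those whose log2(FPKM + 0.1) over the 6 libraries was most like that of Fbl were Zcchc9 (Pearson's r 0.987 over 6 libraries), Pear1 (0.985) and Gm22821 (0.976), and 7 features had an r above 0.95. Pear1 measured 2.03, 0.0802 and 1.63 FPKM with IgG and 1.77, 3.17 and 1.90 FPKM with anti-EZH2, with its lowest value, like that of Fbl, in the IgG library of AngII 4 h. Zcchc9 and Gm22821 were listed at 0 in that library. These likenesses are a description over libraries whose depth all features share. Most like the median profile of the 38 genes were Gm10171 (0.994), Bckdha (0.994) and Selm (0.991), and 70 features had an r above 0.95.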
